A study of Mus musculus with 4 samples.

Results

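The guanylate-binding proteins (GBPs) of the mouse were followed through 4 libraries of CD11b+Ly6g+ myeloid-derived suppressor cells (MDSCs) sorted from lung. The 10 genes Gbp2 to Gbp11 were taken by their symbols from a table of 54532 genes. Gbp5, Gbp7, Gbp3 and Gbp2 lie in this order on chromosome 3, between positions 142493978 and 142638008 of the GRCm38 build. Gbp8, Gbp9, Gbp4, Gbp10, Gbp6 and Gbp11 lie on chromosome 5, between positions 105014150 and 105346472. Of the 10 members, 8 had at least 10 reads in at least 1 library, as did 16369 genes in all. Gbp10 and Gbp11 did not reach this number and are given by their reads alone.

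Each library came from the pooled lung cells of 10 to 12 male C57BL/6 mice aged 6 to 8 weeks, so that there was 1 library per group. All groups carried the same model of the pre-metastatic niche (PMN). Mice received 300 μl of MCM, a medium in which B16F10 melanoma cells had been grown, into the peritoneum on 10 consecutive days and 100000 B16F10 cells into the tail vein on day 7. The control group (Ctrl) had the model and no peptide. The TP5 group received free thymopentin, an immunomodulatory pentapeptide. The FR17 group received a peptide that carries TP5 and assembles after cleavage by a matrix metalloproteinase. The sFD17 group received the matching assembling peptide in which the TP5 part is scrambled. Each peptide was injected under the skin from day 3 at 40 μM/kg per day, and lungs were collected on day 10. With a single library of pooled cells per group, the spread between mice was not measured and no difference has a replicate check. The intervals given with ratios are 95% exact intervals for a pair of read counts and cover counting error only.

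GBPs are large interferon-inducible GTPases of the dynamin superfamily. They bind and hydrolyse GTP, assemble into oligomers and coat pathogen-containing vacuoles or cytosolic bacteria, from where they help to switch on inflammasomes. Their genes are classical targets of interferon-γ and also respond to type I interferon. Among these members, Gbp2 and Gbp5 end in a CaaX box, a short tail that is prenylated and holds the protein to membranes.

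Interferon-responsive promoters typically hold the core of the interferon-stimulated response element, in which GAAA is followed after any 2 bases by a second GAAA, or that of the gamma-activated site, TTCNNNGAA. RefSeq promoter sequences of GRCm38.p6 were at hand for 4 members, Gbp2, Gbp3, Gbp5 and Gbp7, and for the neighbouring gene Gbp2b. The 250 bases upstream of each start site were searched on both strands. The response element core was found upstream of all 5 genes, each time as TTTC, 2 further bases and TTTC on the coding strand, and in 2.98% of 32851 promoters of the same length. TTCNNNGAA, which reads the same on both strands, was found upstream of Gbp5 and Gbp7 and in 7.02% of the promoters. Of the 2 start sites listed for Gbp3, the first held 2 overlapping matches to the response element core and the second held none. The stretches around the matches are shown because these chromosome 3 genes include the members that differed most between libraries. They run on the plus strand, and capitals mark the bases that match either motif.
Gbp2, chr3:142620594-142620623: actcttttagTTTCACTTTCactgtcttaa
Gbp5, chr3:142496729-142496818: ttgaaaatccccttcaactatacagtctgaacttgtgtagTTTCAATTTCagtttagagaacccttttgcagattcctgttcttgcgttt
Gbp7, chr3:142530243-142530332: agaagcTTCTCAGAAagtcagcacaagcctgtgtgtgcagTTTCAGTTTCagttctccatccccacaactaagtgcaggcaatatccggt
Gbp3, chr3:142559959-142560025: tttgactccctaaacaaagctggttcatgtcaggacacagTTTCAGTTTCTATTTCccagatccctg
Gbp2b, chr3:142594670-142594759: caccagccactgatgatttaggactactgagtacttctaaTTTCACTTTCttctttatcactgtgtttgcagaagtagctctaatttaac

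The first base of the response element core lay 59 bases upstream of the RefSeq start of Gbp2, 165 of Gbp5, 53 of Gbp7, 45 of Gbp3 and 137 of Gbp2b. In Gbp2 the match fell inside the first exon that GENCODE M21 annotates, since that annotation starts the gene at position 142620602, upstream of the RefSeq start at 142620663. A match is a description of these letters and was not tested as a binding site.

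The libraries held 15543071 to 19638228 counted reads. Levels are given as CPM, the reads of a gene relative to the scaled total of its library with the total scaled by TMM, edgeR's trimmed mean of M-values, and per kilobase of the gene's length where genes are compared with each other. The sort label was checked against 14 neutrophil markers, Ly6g and Itgam (CD11b) among them. All 14 were detected in every library, and they took 3.38% to 3.88% of the reads. The same libraries also held reads on all 10 macrophage markers. The macrophage list took 0.439% of the reads in control, 0.328% under TP5, 0.185% under sFD17 and 0.589% under FR17. In bulk RNA, fewer cells of a type and less RNA per cell cannot be told apart.

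The summed family stood far higher in sFD17 than in the other libraries. The 10 members together had 4683 reads in control, 3093 under TP5, 23195 under sFD17 and 5004 under FR17. After scaling, this was 277.2 CPM in control (95% counting interval 269 to 285), 176 under TP5 (170.2 to 183), 1757 under sFD17 (1735 to 1780.3) and 218 under FR17 (212 to 224). None of the 4 intervals overlapped another. At such read numbers these intervals are narrow, cover counting error only and do not measure the spread between mice. Against control, the family ratio was 6.34 (6.14 to 6.54) in sFD17, 0.636 (0.608 to 0.666) in TP5 and 0.786 (0.755 to 0.818) in FR17. These 3 comparisons share the control library. Gbp2 alone carried much of the sum: without it, the log2 difference from control was 1.68 in place of 2.66 in sFD17.

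**Figure D1:**
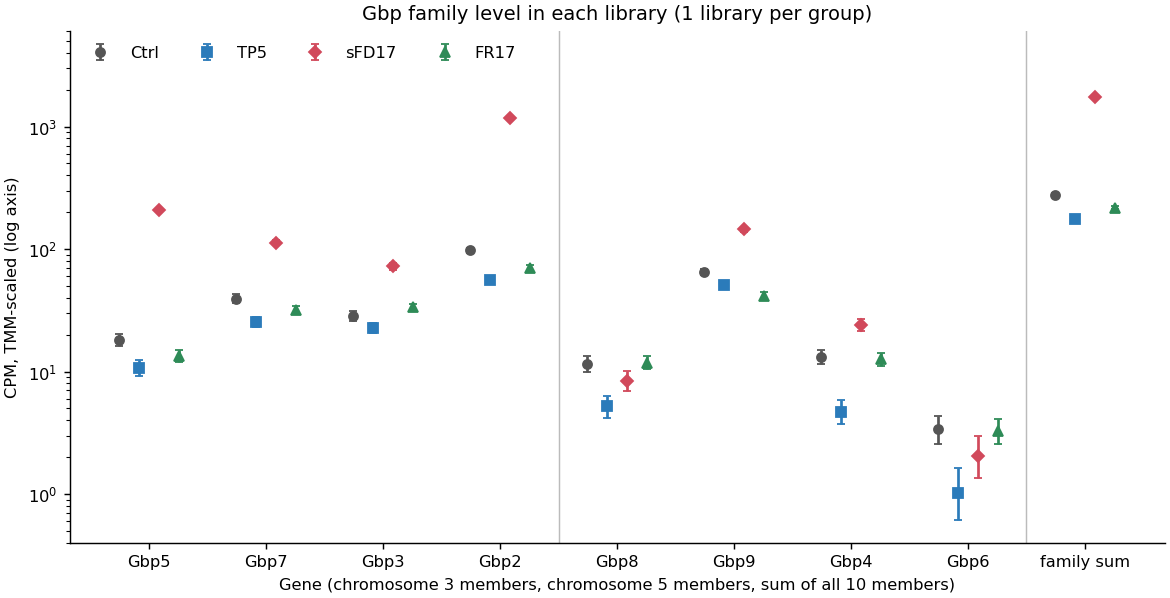
Level of the 8 members with at least 10 reads and of the sum of all 10 members in each library, in TMM-scaled CPM on a log axis, with 95% Poisson intervals of the count. The sFD17 point stands above the other 3 for Gbp5, Gbp7, Gbp3, Gbp2, Gbp9, Gbp4 and the sum, and below the control and FR17 points for Gbp8 and Gbp6.

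In sFD17 against control, 5 of the 8 members were at least 2-fold higher and 0 were at least 2-fold lower. Of all 16369 genes, 5.32% were at least 2-fold higher and 6.47% at least 2-fold lower, which became 3.54% and 9.37% with library size alone. The median log2 difference was 1.25 over the 8 members and -0.03 over all genes.

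The largest differences were those of Gbp2 and Gbp5, the members with a CaaX box. Gbp2 (ENSMUSG00000028270), which acts on vacuoles of intracellular parasites and in the response to bacterial lipopolysaccharide in the cytosol, had 1654 reads in control, 978 under TP5, 15599 under sFD17 and 1605 under FR17. The sFD17 library stood apart from the other 3, and its ratio to control was 12.1 (11.5 to 12.7). Gbp5 (ENSMUSG00000105504), which has been linked to inflammasome assembly, had 304 reads in control, 188 under TP5, 2774 under sFD17 and 306 under FR17. Its ratio in sFD17 was 11.7 (10.4 to 13.2). The control and FR17 libraries held nearly equal reads of Gbp5, and after scaling FR17 stood at 0.741 (0.630 to 0.871) of control. Among the 11034 genes with at least 50 reads in either library, Gbp2 ranked 4 and Gbp5 ranked 6 from the top by log2 difference.

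The other chromosome 3 members were higher in sFD17 by a smaller factor. Gbp7 (ENSMUSG00000040253), which has been linked to the phagocyte NADPH oxidase, had 666 reads in control, 443 under TP5, 1487 under sFD17 and 728 under FR17. Its sFD17 ratio to control was 2.86 (2.61 to 3.14). Gbp3 (ENSMUSG00000028268), one of the members seen on parasite vacuoles, had 478, 399, 955 and 768 reads in the same order of libraries. Its sFD17 ratio was 2.56 (2.29 to 2.86), and FR17 was the second highest library. Summed over the 4 chromosome 3 members, the sFD17 ratio was 8.59 (8.27 to 8.92).

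The chromosome 5 members divided into higher and lower ones in sFD17. Gbp9 (ENSMUSG00000029298) had 1102 reads in control, 890 under TP5, 1915 under sFD17 and 954 under FR17, and a ratio of 2.22 (2.06 to 2.40). It fell below 2-fold when libraries were scaled by their size alone, at a log2 difference of 0.94. Gbp4 (ENSMUSG00000079363) had 223, 82, 316 and 288 reads in the same order, and its ratio of 1.81 (1.52 to 2.16) did not reach 2-fold. Gbp8 (ENSMUSG00000034438) had 195 reads in control, 91 under TP5, 111 under sFD17 and 271 under FR17. Gbp6 (ENSMUSG00000104713) had 57, 18, 27 and 75. Both were lower in sFD17 than in control, with ratios of 0.729 (0.572 to 0.924) for Gbp8 and 0.606 (0.369 to 0.974) for Gbp6. For both genes the TP5 and sFD17 libraries were the low ones and the control and FR17 libraries the high ones. The summed chromosome 5 ratio was 1.93 (1.81 to 2.06), for which Gbp9 gave most of the reads.

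Gbp10 (ENSMUSG00000105096) had 0 reads in control, 1 under TP5, 5 under sFD17 and 1 under FR17. The 0 of control allows up to 0.178 CPM, the level of 3 reads in that library. Gbp11 (ENSMUSG00000092021), annotated as a polymorphic pseudogene, had 4, 3, 6 and 8 reads. For Gbp10 the counting interval of the sFD17 to control ratio began at 1.17, while every other interval of these 2 members, in all 6 comparisons, included 1.

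**Figure D2:**
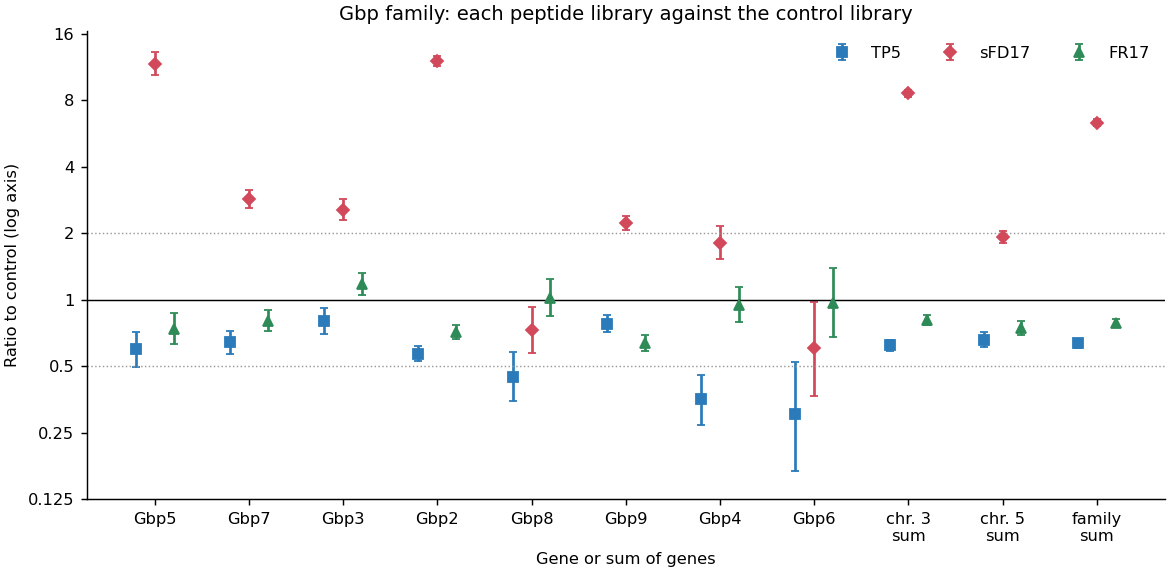
Ratio of each peptide library to the control library for the 8 members and 3 sums, on a log axis with 95% counting intervals; dotted lines mark 2-fold in either direction. Gbp5 and Gbp2 reach ratios of 11.7 and 12.1 in sFD17, all 8 TP5 points lie below 1, and the FR17 points lie between 0.637 and 1.18.

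Free TP5 was the library with the lowest level of 7 of the 8 members, all but Gbp9. Against control, all 8 were lower, with ratios from 0.304 for Gbp6 to 0.804 for Gbp3. At least 2-fold lower were 3 of the 8, against 4.99% of all genes, and 0 were at least 2-fold higher, against 3.2% of all genes. The median log2 difference was -0.78 over the 8 members and 0.00 over all genes.

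The 3 members at least 2-fold lower in TP5 all lie on chromosome 5. Gbp4 had a ratio of 0.354 (0.272 to 0.458), and Gbp8 one of 0.449 (0.347 to 0.579). Gbp6, at 0.304 (0.168 to 0.524), rests on 18 reads in TP5. Only for Gbp4 did the whole counting interval lie beyond 2-fold. The other members differed less, among them Gbp2 at 0.569 (0.526 to 0.617), Gbp5 at 0.596 (0.494 to 0.717), Gbp7 at 0.640 (0.567 to 0.723) and Gbp9 at 0.778 (0.711 to 0.850). The macrophage list was also lower in TP5, with 9 of 10 markers below control and a scaled sum of 0.720 of control. The scaled sums of the red blood cell (0.473), fibroblast (0.561), NK cell (0.594) and endothelial (0.734) lists were below control as well, and those of the dendritic cell (1.80), B cell (1.72) and epithelial lists above it, the last with 16049 reads against 10335 in control and 3 of 4 markers higher. The platelet sum of 0.424 rested on Pf4 alone, the other 3 platelet markers being higher than control. The part of these markers in the result was not tested.

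FR17 stood nearest to control in the summed family. At least 2-fold higher were 0 of the 8 members, against 3.92% of all genes, and 0 were at least 2-fold lower, against 3.58%. With library size alone these shares of all genes were 6.67% and 1.93%. The median log2 difference was -0.19 over the 8 members and 0.02 over all genes. Gbp9 had the lowest ratio to control, 0.637 (0.584 to 0.695), and was lower in FR17 than in any other library. Gbp2 had a ratio of 0.714 (0.666 to 0.765), Gbp5 one of 0.741 (0.630 to 0.871) and Gbp7 one of 0.804 (0.723 to 0.895). Gbp3 was higher, at 1.18 (1.05 to 1.33). For Gbp8 at 1.02 (0.848 to 1.24), Gbp4 at 0.95 (0.795 to 1.14) and Gbp6 at 0.968 (0.677 to 1.39) the interval included 1. With library size alone as the scaling, the median of all genes moved to 0.26 on the log2 scale in FR17, -0.23 in sFD17 and 0.05 in TP5. Gbp4 and Gbp6 then turned from below to above control in FR17, at log2 differences of 0.17 and 0.19, both under that median, and the median of the 8 members turned to 0.05.

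The assembling peptides FR17 and sFD17 were given at the same dose and differ in whether the TP5 part is intact or scrambled. The family was lower in FR17, with a ratio to sFD17 of 0.124 (0.120 to 0.128), and 5 of 8 members were at least 2-fold lower in FR17. These were Gbp2, Gbp3, Gbp5, Gbp7 and Gbp9. Of all genes, 10.8% were at least 2-fold lower and 11.3% at least 2-fold higher in FR17 than in sFD17, and 0 members were at least 2-fold higher. With library size alone these shares of all genes were 4.78% and 25.7%, and 1 member, Gbp6, was at least 2-fold higher. Without Gbp2, the family log2 difference of FR17 from sFD17 was -1.96 in place of -3.01. Gbp2 was 16.9-fold (16.1 to 17.8) and Gbp5 15.8-fold (14.0 to 17.8) higher in sFD17 than in FR17. Gbp3 was 2.16-fold (1.96 to 2.38) higher in sFD17, and under library size alone its log2 difference of FR17 from sFD17 was -0.65, short of 2-fold. Gbp8 and Gbp6 went the other way, with FR17 to sFD17 ratios of 1.40 (1.12 to 1.77) and 1.6 (1.02 to 2.58). Of the marker lists, all 6 NK cell, all 4 red blood cell, 7 of 10 macrophage and 4 of 6 T cell markers were at least 2-fold higher in FR17 than in sFD17, and 13 of 14 neutrophil markers were lower, 2 of them by at least 2-fold. The part of these markers in the Gbp differences was not tested.

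FR17 and free TP5 both contain the TP5 sequence. The family ratio of FR17 to TP5 was 1.24 (1.18 to 1.29). Higher in FR17 were 7 of 8 members, and Gbp9 was lower at 0.819 (0.747 to 0.898). Gbp4, Gbp6 and Gbp8 were at least 2-fold higher in FR17, with ratios of 2.68 (2.09 to 3.47), 3.2 (1.88 to 5.66) and 2.28 (1.79 to 2.92). These are 3 of 8 members, against 7.04% of all genes, and 0 members were at least 2-fold lower, against 2.88%. With library size alone the shares of all genes were 9.77% and 1.92%. Markers of several other cells were also higher in FR17 than in TP5. All 6 NK cell, all 4 red blood cell and 4 of 5 endothelial markers were at least 2-fold higher. All 10 macrophage markers were higher, 4 of them by at least 2-fold, and 3 of 6 T cell, 2 of 4 platelet, 2 of 5 fibroblast and 2 of 5 eosinophil, basophil and mast cell markers were at least 2-fold higher. All 14 neutrophil markers were lower, with 0 at least 2-fold. Also lower, with 0 at least 2-fold, were all 5 B cell, 4 of 5 dendritic cell and 3 of 5 monocyte markers. The part of these markers in the Gbp values was not tested.

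The scrambled peptide and free TP5 were the furthest apart. All 8 members were higher in sFD17 than in TP5, and the family ratio was 9.97 (9.60 to 10.35). At least 2-fold higher were 6 of 8, against 6.74% of all genes, and 0 were at least 2-fold lower, against 5.64%. These shares were 4.33% and 10.06% with library size alone. These 6 were Gbp2, Gbp3, Gbp4, Gbp5, Gbp7 and Gbp9. Gbp2, at 21.2 (19.9 to 22.6), ranked 1 of the 11098 genes with at least 50 reads in either library, and Gbp5 ranked 3 with an interval of 16.9 to 22.9. Gbp4 reached 5.12 (4.01 to 6.61) and Gbp7 4.46 (4.01 to 4.97). Gbp6, at 1.99 (1.06 to 3.84), and Gbp8, at 1.62 (1.22 to 2.16), were the 2 under 2-fold. Of the macrophage markers, 9 of 10 were lower in sFD17 than in TP5, 3 of them by at least 2-fold. All 5 dendritic cell, all 5 B cell and 5 of 6 T cell markers were lower. All 5 fibroblast and 11 of 14 neutrophil markers were higher. At least 2-fold higher were 2 of 6 NK cell and 2 of 5 endothelial markers. The part of these markers in the Gbp values was not tested.

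The sFD17 difference was not shared by every gene within the clusters. Gbp2b lies between Gbp3 and Gbp2 on the same strand and also encodes a guanylate-binding protein with a CaaX box. It had 100 reads in control, 77 under TP5, 21 under sFD17 and 185 under FR17. It was thus lowest in the library where its neighbour Gbp2 was highest, with a sFD17 ratio to control of 0.269 (0.159 to 0.433). The response element core upstream of both genes had the same letters, TTTCACTTTC. Pdlim5, the gene on the other side of Gbp5, had a log2 difference of 0.27 in sFD17. Gbp2-ps and Gm43302, the remaining Gbp-like genes at these places, had 0 reads in every library.

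**Figure D3:**
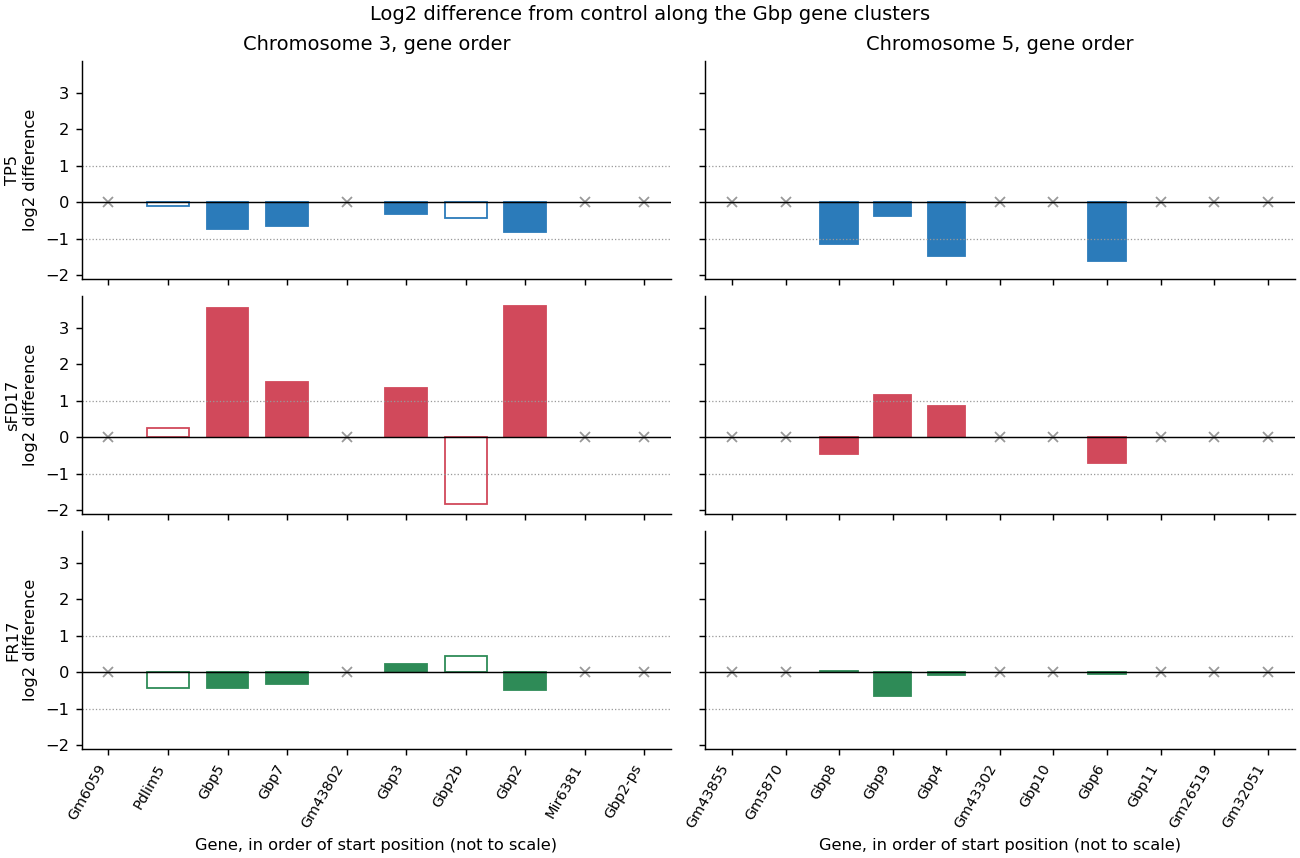
Log2 difference from control for TP5, sFD17 and FR17 (rows) along the clusters of chromosome 3 and chromosome 5 (columns), with genes in order of position and not to scale. Filled bars are members, open bars other genes, crosses genes with fewer than 10 reads in every library, and dotted lines mark 2-fold; in sFD17 the open bar of Gbp2b points down at -1.82 between the bars of Gbp3 at 1.35 and Gbp2 at 3.59.

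Because paralogs can share reads, the transcripts of the members were compared by their words of 50 bases. Of the words of Gbp2 and Gbp5, 98.0% and 98.6% occurred in no other gene. The share was 96.2% for Gbp3, 92.3% for Gbp4, 92.0% for Gbp9, 87.3% for Gbp7 and 81.9% for Gbp8. It was 29.3% for Gbp6 and 15.9% for Gbp10, which share sequence with each other and with Gm43302, so that their separate counts are uncertain. Of the exon bases of Gbp6, 29.0% lie in exons of Gm43302 on the same strand. Gbp4, Gbp8 and Gbp9 share 60 to 61 bases of exon.

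Per kilobase, Gbp2 was the most abundant member in all 4 libraries. In control its level was 38.9 CPM per kilobase, followed by Gbp9 at 12.6, Gbp3 at 8.67, Gbp7 at 7.02, Gbp8 at 3.35, Gbp5 at 2.71, Gbp4 at 1.76 and Gbp6 at 0.567. Each of these neighbours differed by more than counting error. In TP5 the order was the same but for Gbp5 and Gbp8, at 1.61 and 1.51, whose ratio of 1.07 (0.830 to 1.39) included 1. In FR17, Gbp3 at 10.2 stood above Gbp9 at 8.03. In sFD17, Gbp5 took the second place at 31.7, behind Gbp2 at 470 and ahead of Gbp9 at 28.0, Gbp3 at 22.2 and Gbp7 at 20.1. Gbp4 followed at 3.20, Gbp8 at 2.44 and Gbp6 at 0.344. Gbp6 and Gbp11 could not be ordered by their counts in TP5 and sFD17.

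The make-up of the family differed accordingly. Gbp2 made up 51.4% of the summed level per kilobase in control, 46.7% in TP5 and 46.7% in FR17, and 81.3% in sFD17. Gbp5 made up 3.58% in control and 5.48% in sFD17. The share of Gbp9 was 16.7% in control, 20.7% in TP5 and 13.5% in FR17, and 4.85% in sFD17.

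**Figure D4:**
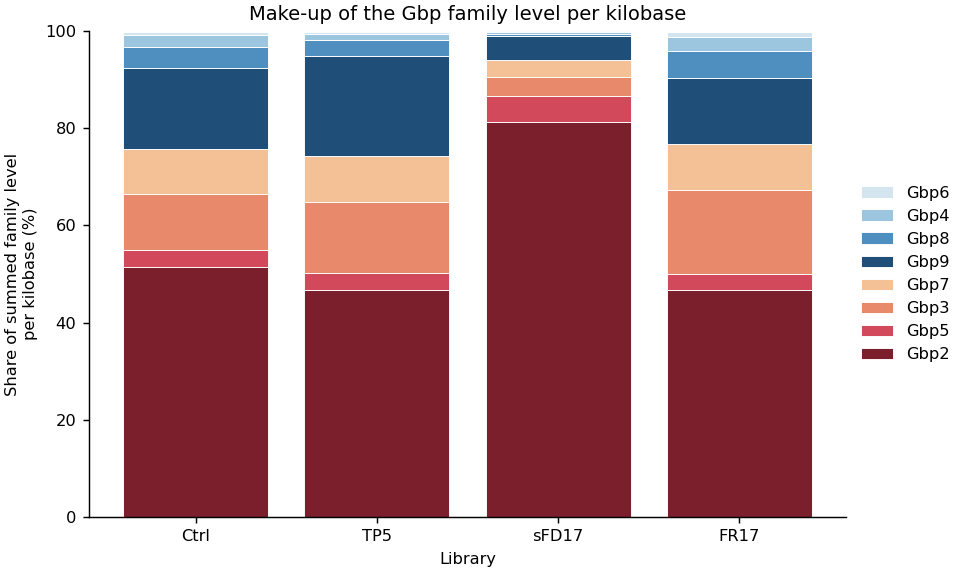
Share of each member in the summed family level per kilobase, in percent, for the 4 libraries; red shades are chromosome 3 members, blue shades chromosome 5 members, and Gbp10 and Gbp11 are too small to draw. Gbp2 takes 81.3% of the bar in sFD17 and between 46.7% and 51.4% in the others.

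The immunity-related GTPases, a second family of interferon-inducible GTPases that work beside GBPs on pathogen vacuoles, differed in the same direction. In sFD17, 7 of 8 were at least 2-fold higher than control, against 5.32% of all genes, with a median log2 difference of 2.17. Ifi47 was at 3.51, Tgtp1 at 3.35 and Gm12250 at 2.99, while Iigp1 was the exception at -0.82. In TP5 all 8 were lower, with a median of -0.69 and 2 at least 2-fold lower, against 4.99% of all genes. Iigp1 had the lowest value at -2.29. In FR17 the median was -0.21, and it was 0.03 with library size alone. There, 0 were at least 2-fold away in either direction, against 3.92% of all genes higher and 3.58% lower.

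Some of the signalling genes upstream of GBPs were at least 2-fold higher in sFD17. Of 8 type I interferon signalling genes, 3 were at least 2-fold higher in sFD17, against 5.32% of all genes. They were Usp18 at 2.66, a negative regulator of the receptor, Irf7 at 2.38 and Stat2 at 2.03. The median of that list was 0.65 in sFD17, -0.16 in TP5 and -0.36 in FR17. In TP5, 1 of the 8 was at least 2-fold lower, against 4.99% of all genes. This was Ifnb1, which encodes interferon-β. It had 47 reads in control, 18 under TP5, 19 under sFD17 and 76 under FR17, and was the 1 gene of the list below control in sFD17, with a ratio of 0.517 (0.287 to 0.899). Of 11 interferon-γ signalling genes, 0 were at least 2-fold away from control in sFD17 or TP5. Of all genes, 5.32% were higher and 6.47% lower by this much in sFD17, and 3.2% and 4.99% in TP5. The 0 of 11 was thus near the share of all genes. The median of the 11 was 0.31 in sFD17, 0.05 in TP5 and -0.29 in FR17. In sFD17, Socs1, which encodes an inhibitor of cytokine signalling, was at 0.84 and the transcription factor Irf1 at 0.68. In TP5, Irf1 was at -0.53. Ifng itself had 15 reads in control, 17 under TP5, 23 under sFD17 and 56 under FR17. It was the 1 gene of the list at least 2-fold higher in FR17, at 1.35, against 3.92% of all genes. In the same library, all 6 NK cell markers, none of them at 0, were at least 2-fold higher than control, with a scaled sum of 3.19 times control and 0.00970% of the reads. All 6 T cell markers were higher as well, with 3 at least 2-fold and a scaled sum of 1.76 times control. The part of these markers in the Ifng value was not tested.

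Genes that act with GBPs on membranes or downstream of them were mostly within 2-fold of control, as were most of all genes. The 5 genes of CaaX lipidation and processing had 0 at least 2-fold away in any peptide library, with medians of -0.22 in sFD17, -0.11 in TP5 and 0.15 in FR17. The 5 genes of ATG8 conjugation, whose products are needed for GBPs to reach some vacuoles, also had 0, with medians of -0.25 in sFD17, -0.25 in TP5 and -0.42 in FR17. Of 8 inflammasome genes linked to GBPs, only Nlrp3 reached 2-fold, at 1.01 in sFD17 (0.79 with library size alone), and it was at -0.92 in FR17. In sFD17, 5.32% of all genes were at least 2-fold higher and 6.47% lower, so a single gene among these 3 lists was near the share of all genes. Casp4, which encodes the sensor of cytosolic lipopolysaccharide, was at 0.75 in sFD17, and Il18 was at -0.67.

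**Figure D5:**
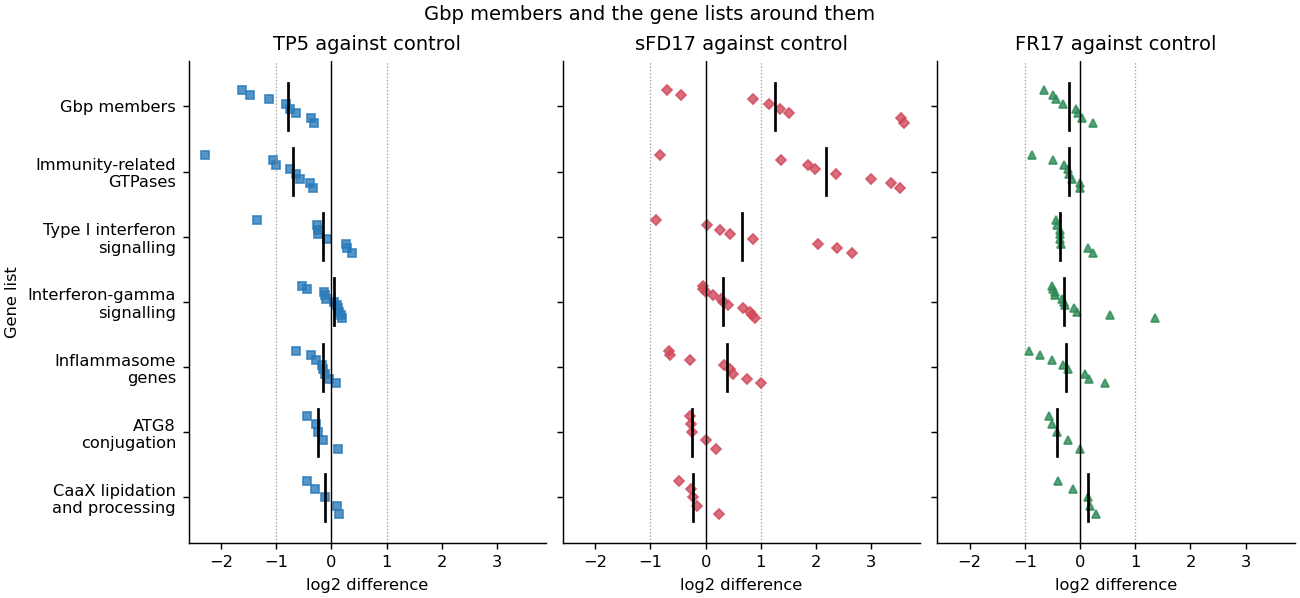
Log2 difference from control of the Gbp members and of 6 gene lists in TP5, sFD17 and FR17; each point is a gene, black bars are list medians and dotted lines mark 2-fold. In sFD17 the medians are 1.25 for the Gbp members and 2.17 for the immunity-related GTPases, and lie between -0.25 and 0.65 for the other lists.

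The profile of the summed family over the 4 libraries was compared with that of 11981 other genes with at least 50 reads in at least 1 library. Likeness was the Euclidean distance between log2 levels centred on each gene's mean over the 4 libraries. The 10 nearest genes were Zbp1 at 0.27, Gm12250 at 0.32, Herc6 at 0.33, Ikbke at 0.34, Upp1 at 0.40, Irgm1 at 0.47, Xaf1 at 0.57, Cxcl10 at 0.59, and Igtp and Ifi47, both at 0.61. Zbp1, which encodes a sensor of Z-form nucleic acids, had 619 reads in control, 521 under TP5, 3732 under sFD17 and 806 under FR17. With 4 libraries, this likeness rests mainly on the single sFD17 library.

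Marker levels of other cells also differed in that library. In sFD17, all 10 macrophage markers were lower than control, with 6 at least 2-fold lower (6.47% of all genes) and a scaled sum of 0.490 of control. All 14 neutrophil markers were higher, with 0 at least 2-fold higher (5.32% of all genes) and a scaled sum of 1.32 of control. The red blood cell sum was 0.593 of control with all 4 markers lower. The T cell sum was 0.585 of control with 2 of 6 markers higher. Cd4, with 398 reads in control and 93 under sFD17, carried most of that T cell difference. The epithelial sum was 2.07 of control with 2 of 4 markers higher, and the platelet sum 0.268 with 3 of 4 markers higher and Pf4 lower. Gbp8 and Gbp6 were lower in sFD17, as the macrophage list was, while the other 6 members were higher. The part of these markers in the Gbp values was not tested.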

How the data were processed

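RNA of the sorted cells was extracted with TRIzol and made into libraries with a kit that keeps strand. The deposited values are raw counts of reads for every gene. The processing notes in the labels name HISAT2 2.0.5, StringTie 1.3.3b, featureCounts 1.5.0-p3, edgeR 3.18.1 and GRCm38.p6; whether strand was used in counting is not given in the sources used here. GENCODE M21 lists 54495 of the gene identifiers, 53585 of them at the same coordinates.

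Counts were scaled with edgeR 4.0.16 (TMM, prior count 2) in R 4.3.3. Only genes with at least 10 reads in at least 1 library were compared. With 1 library per group, no test was the basis of a call, and a gene was called at a log2 CPM difference of 2-fold or more. Ratios used TMM-scaled counts with exact conditional 95% intervals, and levels Poisson intervals. Genes outside the family were named by fixed rules: in each pathway list the 3 with the largest difference among those with at least 50 reads, the 10 nearest profiles, other Gbp genes and cluster neighbours; Ifng, Ifnb1 and Iigp1 were added where a count or list turned on them. Some results that these rules select are not reported here. Members and lists were chosen with earlier results of these data known. Alternatives were DESeq2 1.42.0 size factors, library size alone, other prior counts, filters and folds, and tests by edgeR and DESeq2. The calculation was tested on simulated data.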

Additional observations from a re-analysis of the deposited data

How the results depend on the processing

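The counts of members called depended on the call rule, and each is given with the share of all genes called by the same rule. At 4-fold, 2 members were higher in sFD17 than in control (0.764% of all genes; 5 members at 2-fold), 0 lower in TP5 than in control (0.495%; 3), 0 higher in FR17 than in TP5 (0.953%; 3) and 2 lower in FR17 than in sFD17 (1.64%; 5). At 1.5-fold, 6 were lower in TP5 than in control (11.8%), 1 lower in sFD17 (15.6%) and 1 lower in FR17 (11.7%) than in control, and 1 higher in FR17 than in sFD17 (24.7%). That last count was also 1 with library size alone. When the whole counting interval had to lie past 2-fold, 1 was lower in TP5 than in control (0.629%) and 1 higher in FR17 than in TP5 (1.72%). DESeq2's Wald test at an unadjusted p under 0.05 called 0 higher in sFD17 than in control (0.226%), 0 lower in TP5 than in control (0.183%), lower in FR17 than in sFD17 just 1 (4.33%), 0 in FR17 above TP5 (0.672%) and 3 higher in sFD17 than in TP5 (0.611%). edgeR's exact test at the same p called 5, 3, 5, 3 and 6 members in these comparisons (1.94%, 1.21%, 7.00%, 2.96% and 2.87%). The cause of these differences was not tested. The chromosome 5 members alone gave a summed log2 difference of 0.95 for sFD17 against control, against 2.66 for the family. Of 192 recomputed values of single members, 187 kept their sign and their side of 2-fold.

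No difference has a replicate check, and edgeR's and DESeq2's tests take their spread from libraries of different treatments. No paired analysis was possible because each group has 1 library. Each comparison rests on 1 library a side, so none was left out of it. Gbp10 and Gbp11 had 0 to 8 reads per library, and Gbp6 shares most of its sequence with Gbp10 and Gm43302.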

Other observations

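The Gbp genes fell into more than 1 profile over the 4 libraries. Gbp8 and Gbp6, the neighbouring gene Gbp2b and the immunity-related GTPase Iigp1 had ratios to control below 1 in both TP5 and sFD17, and intervals that included 1 or lay above it in FR17. All these intervals in TP5 and sFD17 lay below 1 but that of Gbp2b in TP5. The summed macrophage markers were also below control in TP5 and sFD17 and above it in FR17, at 0.720, 0.490 and 1.13 of control. The same held for the red blood cell (0.473, 0.593 and 1.54), NK cell (0.594, 0.796 and 3.19), fibroblast (0.561, 0.864 and 1.03), T cell (0.800, 0.585 and 1.76), platelet (0.424, 0.268 and 1.31) and eosinophil, basophil and mast cell (0.738, 0.659 and 1.24) sums. The last 3 sums went against most of their markers in TP5, where 5 of 6, 3 of 4 and 3 of 5 were above control. In sFD17, 2 of 6, 3 of 4 and 3 of 5 were above it. Single genes held most of the control reads of these 3 lists. They were Cd4 (398 of 709), Pf4 (1733 of 1881) and Siglecf (879 of 950). The red blood cell, NK cell and fibroblast sums were lowest in TP5, as Gbp8, Gbp6 and Iigp1 were, and the other sums lowest in sFD17, as Gbp2b was. The part of these markers in these values was not tested. Iigp1 had 191 reads in control, 39 under TP5, 84 under sFD17 and 261 under FR17. Its ratio to control was 0.197 (0.136 to 0.279) in TP5, 0.563 (0.430 to 0.731) in sFD17 and 1.01 (0.831 to 1.22) in FR17. Gbp2b had ratios of 0.742 (0.544 to 1.01) in TP5, 0.269 (0.159 to 0.433) in sFD17 and 1.36 (1.06 to 1.75) in FR17. These genes were set together after their values were seen.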
